A study of Mus musculus with 16 samples.

Results

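The genes described here are components and regulators of complement, the system of plasma and tissue proteins that tags microbes and dying cells for uptake and lysis. They are C2, C3, C4b, Cfb, Cfd, Serping1, C1qa, C1qb and C3ar1, read on arrays of mouse colon fibroblasts. Every probe set (a group of array probes for one transcript) that the platform table gives to one of these 9 genes alone was taken. Such probe sets were found for 7 of the 9 genes, 9 probe sets of 45141 and 7 genes of 17097. C3 and Cfd were named by no probe set and are not analysed here.

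Complement starts from pattern recognition. In the classical pathway the C1q molecule, built of the chains of C1qa, C1qb and C1qc, binds a target and switches on the proteases C1r and C1s, which cut C4 and C2. The joined fragments form an enzyme that cleaves C3, and factor B (Cfb) plays the part of C2 in the enzyme of the alternative pathway. C1 inhibitor, the product of Serping1, stops C1r and C1s, and C3ar1 encodes the receptor for the C3a fragment, found on macrophages and other myeloid cells. Much of plasma complement comes from the liver, whereas C1q is made mainly by macrophages, and fibroblasts are known sources of C1r, C1s and C1 inhibitor.

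The cells came from colons of C57BL/6 mice of the genotype Gli1CreERT2-ZsGreen, and the age of the mice is not given in the sources used here. In such mice Cre recombinase is active only after tamoxifen and only in cells that use the Gli1 gene, a target of Hedgehog signalling, and those cells then keep the green protein ZsGreen. All 4 mice received 1 mg tamoxifen into the peritoneum on 5 successive days. The protocol places the kill on day 6, whereas a sample label gives a time of 5 days from tamoxifen, and which of these readings holds is not settled by the labels. Cells negative for Epcam, CD45 and CD31 and positive for gp38 were sorted into Sca1+Gli1ZsGreenhigh (reporter-high), Sca1+Gli1ZsGreendim (reporter-dim), Sca1+Gli1ZsGreen- (Sca1+ negative) and Sca1-Gli1ZsGreen- (Sca1-) cells. Each population was read on 1 array per mouse, 16 arrays in all, from 2 ng of amplified RNA. Untreated mice and Sca1- reporter-positive cells were not analysed here. Green label marks cells that used Gli1 when tamoxifen was present, so a negative cell may be one in which recombination did not occur.

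Several features of the arrays bear on the values. The arrays labelled mouse 2 did not match one another: its reporter-high and reporter-dim arrays carried Y-linked transcripts and its reporter-negative arrays carried Xist. Counts of mice and fits with mouse as a block therefore rest on the labels, and counts of calls in the set and in the gene lists are given without mouse 2 too where they differ. The Gli1 signal was 2611 ± 321 (SD, n = 4) in reporter-high cells. It was 2323 ± 322 in the dim, 1104 ± 299 in the Sca1+ negative and 920.5 ± 318 in the Sca1- population. Epcam and other epithelial transcripts, and Pecam1, the gene of CD31, were present despite the gate. Pecam1 was above background on every array, at 969.2 ± 148, 2180 ± 962, 4064 ± 890 and 4149 ± 2050 from reporter-high to Sca1- cells. The mean log2 signal of 17 epithelial genes was 11.70 ± 0.86 in reporter-high and 13.29 ± 0.49 in reporter-dim cells, against 14.01 ± 0.29 in Sca1+ negative and 14.01 ± 0.45 in Sca1- cells. Array medians lay between 661 and 686, and the highest of 23 nonspecific control probe sets, used here as the array's background, between 234 and 488. Since even nonspecific controls gave such signals, differences of weakly expressed genes are understated, and levels are compared between samples and never between genes. In such bulk samples, fewer cells of a type and less RNA per cell cannot be told apart.

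C2 and Cfb, which encode the protease subunits of the classical and alternative C3-cleaving enzymes, were highest in Sca1+ negative cells. C2 signals there were 816, 818, 1139 and 1145 in mice 1 to 4. They were 512, 482, 490 and 568 in reporter-high cells. Reporter-dim cells gave 534, 437, 502 and 533. In Sca1- cells the C2 signals were 467, 414, 382 and 415, above background on 3 of 4 arrays. Every Sca1+ negative array thus lay above all 12 others. The means of reporter-high, reporter-dim and Sca1- cells were 513, 501.5 and 419.5. C2 was lower by 0.92 on the log2 scale in reporter-high than in Sca1+ negative cells, a difference of -0.92 ± 0.12 (SE; 4 arrays per population; limma adjusted p = 0.000199; 1.89-fold). The difference was -0.95 ± 0.12 for reporter-dim cells (adjusted p = 0.00164). Between Sca1+ negative and Sca1- cells it was 1.21 ± 0.12 in favour of Sca1+ cells (adjusted p = 4.24e-05; 2.31-fold). Each of these held in 4 of 4 mice. The call in reporter-dim cells was lost without mouse 4 (adjusted p = 0.0607), while those of the other two comparisons passed in each of 12 fits that left out an array or a mouse. Reporter-high and Sca1- cells did not overlap in C2 either. Their difference of 0.29 ± 0.12 did not pass (limma adjusted p = 0.0714 among 28898 probe sets), but did without the Sca1- array of mouse 1 (adjusted p = 0.0421).

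Cfb signals in Sca1+ negative cells were 3669, 4317, 5307 and 4243. Reporter-high cells had 1988, 1418, 2508 and 2362, and reporter-dim cells 2358, 2155, 3352 and 2565. Those of Sca1- cells were 2297, 3018, 2973 and 2577. The lowest Sca1+ negative array exceeded every other array of the series, as for C2, but reporter-high cells and not Sca1- cells had the lowest mean. Cfb was lower in reporter-high than in Sca1+ negative cells by -1.10 ± 0.18 (adjusted p = 0.000508; 2.15-fold). The difference of reporter-dim cells, -0.76 ± 0.18, passed narrowly (adjusted p = 0.0483) and was lost in 9 of 12 fits with an array or mouse left out, with an adjusted p of up to 0.345. Between Sca1+ negative and Sca1- cells the Cfb difference of 0.69 ± 0.18 missed the threshold (adjusted p = 0.0576), although the groups did not overlap. It passed with mouse as a block (adjusted p = 0.00997) and with sex as a covariate (adjusted p = 0.00192). Cfb was at -0.42 ± 0.18 in reporter-high against Sca1- cells (adjusted p = 0.0803; 0.0222 with mouse as a block), a value that became 0.02 when arrays were scaled to the hybridization controls.

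**Figure D1:**
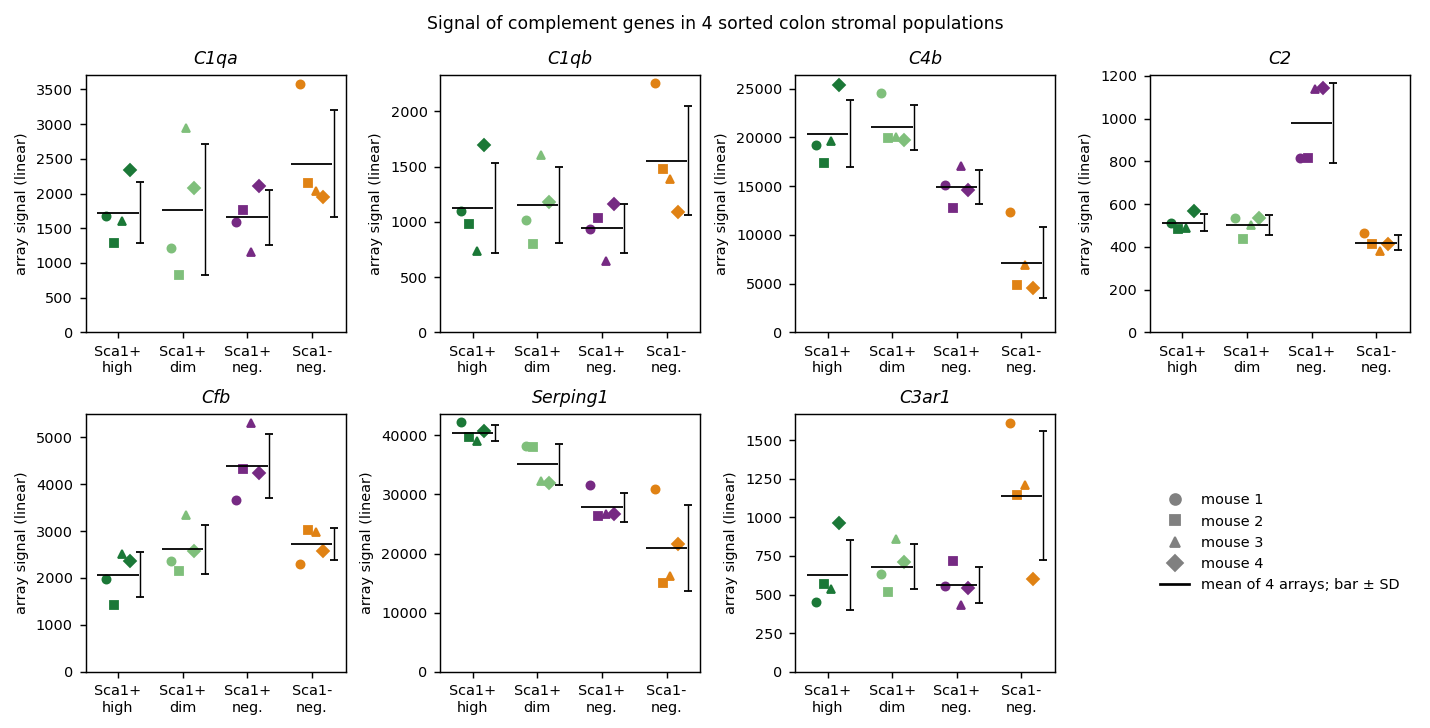
Array signal (linear axis from 0) of the 7 measured complement genes in the 4 sorted populations, 1 point per array with the shape giving the mouse. The line is the mean and the bar ± SD of 4 arrays. C2 and Cfb are highest in Sca1+ negative cells, C4b and Serping1 are lowest in Sca1- cells, and C1qa, C1qb and C3ar1 overlap between populations.

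The epithelial list moved together with the reporter in part of these comparisons: 17 of 17 measured epithelial genes were lower in reporter-high than in Sca1+ negative cells (15 without mouse 2), while for reporter-dim cells 0 of 17 passed with limma (5 at an unadjusted p under 0.05; 8 with mouse as a block). Between Sca1+ negative and Sca1- cells, where C2 differed most, 0 of 17 epithelial genes passed with limma (0 at an unadjusted p under 0.05) and the mean of the list was 14.01 in both. Of all genes, 1.51% passed for reporter-dim against Sca1+ negative cells and 2.45% between Sca1+ negative and Sca1- cells. A count of 0 in so short a list lies near those shares. Of 8 mesothelial genes, 4 were lower and 0 higher in reporter-high than in Sca1+ negative cells (2 and 0 without mouse 2; 2 and 2 when scaled to the hybridization controls). Wt1, a transcription factor of mesothelium and of some visceral stroma, had the profile of C2, with 739.5 ± 191 in Sca1+ negative cells against 329.2 ± 39.8, 286.2 ± 37.5 and 341.5 ± 57.7 in reporter-high, reporter-dim and Sca1- cells. Msln, another marker of mesothelium, was at or below background on all 16 arrays. Of the 8 mesothelial genes, 4 were above background on all 4 arrays in reporter-high and in Sca1+ negative cells. In reporter-dim and in Sca1- cells 3 were. The mean log2 signal of the mesothelial list was highest in Sca1+ negative cells, at 9.05, followed by Sca1- cells at 8.90. Reporter-dim cells stood at 8.59 and reporter-high cells at 8.45. Endothelial genes had much the same order as the epithelial ones. Of 13, 9 were lower and 1 (Tek) higher in reporter-high than in Sca1+ negative cells (2 and 0 without mouse 2; 5 and 1 when scaled), while with limma 0 passed for reporter-dim against Sca1+ negative cells (6 at an unadjusted p under 0.05) and 0 between Sca1+ negative and Sca1- cells (2 at an unadjusted p under 0.05). Their mean log2 signal was 9.47 ± 0.11, 9.75 ± 0.19, 10.16 ± 0.25 and 10.20 ± 0.55 from reporter-high to Sca1- cells, and the Sca1- array of mouse 1 stood at 11.01 against 9.79 to 10.01 in the other Sca1- arrays. Of 11 leukocyte and 8 adipocyte genes, 3 and 2 were lower in reporter-high than in Sca1+ negative cells and none higher (1 and 2 lower without mouse 2). Over all genes 30.9% passed in this comparison, 17% higher and 13.9% lower. When scaled, 4 leukocyte genes were higher and 1 lower, and 2 adipocyte genes higher and 1 lower. The part of these cell types in the C2 and Cfb differences was not tested.

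C2 and Cfb are neighbours on chromosome 17, in the class III region of the major histocompatibility complex. RefSeq (GRCm38.p6) lists C4b, Cyp21a1, C4a, Stk19, Dxo, Skiv2l, Nelfe, Cfb, C2, Zbtb12 and Ehmt2 in that order. Atf6b and Tnxb, which precede C4b, were not included. The 7 measured genes other than members from Cyp21a1 to Ehmt2 were looked at for their position, after the members' values were seen. In the 6 comparisons their log2 differences lay between -0.24 and 0.32. With limma 0 of 42 values passed (4 at an unadjusted p under 0.05; lowest adjusted p = 0.0515). Of all genes, 1.42% to 35.9% passed, depending on the comparison. The comparisons share populations, so the 42 values are not independent. Nelfe, a subunit of a transcription elongation complex next to Cfb, differed by -0.11 ± 0.11 between reporter-high and Sca1+ negative cells (adjusted p = 0.49). Zbtb12, a zinc finger gene next to C2, differed by 0.03 ± 0.06 (adjusted p = 0.787).

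**Figure D2:**
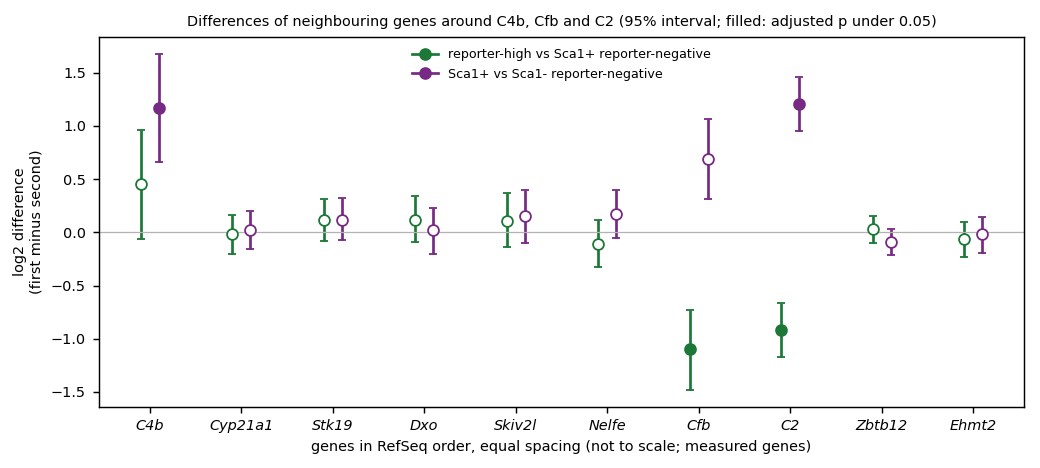
Log2 difference with its 95% interval for C4b, Cfb, C2 and 7 other measured genes from Cyp21a1 to Ehmt2 in RefSeq order (equal spacing, not to scale). Genes before C4b are not shown. Green compares reporter-high with Sca1+ negative cells, purple compares Sca1+ negative with Sca1- cells, and filled points passed an adjusted p of 0.05. C2 stands at -0.92 and 1.21, while the 7 other genes shown lie near 0.

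C4b and Serping1 had another order: both had their lowest mean in Sca1- cells and higher ones in the reporter-positive populations. The probe set of C4b cannot be told apart from the near-identical C4a, so its signal may hold both. C4 is cut by C1s and its larger fragment anchors the classical C3-cleaving enzyme to the target. C4b signals were 19178, 17406, 19666 and 25366 in reporter-high and 24518, 19926, 20076 and 19699 in reporter-dim cells. Sca1+ negative cells gave 15166, 12787, 17056 and 14589. Sca1- cells gave 12386, 4826, 6950 and 4518, with the array of mouse 1 far above the rest. C4b was higher than in Sca1- cells by 1.62 ± 0.24 in reporter-high (adjusted p = 0.00013; 3.07-fold), by 1.67 ± 0.24 in reporter-dim (adjusted p = 0.000454) and by 1.17 ± 0.24 in Sca1+ negative cells (adjusted p = 0.0144), in 4 of 4 mice each time. The first and second of these calls held in all 12 fits with an array or mouse left out. The last was lost in 5 of 12, namely without mouse 2, 3 or 4 or without the Sca1- array of mouse 2 or 4, with an adjusted p of up to 0.188. Against Sca1+ negative cells C4b was at 0.45 ± 0.24 in reporter-high (adjusted p = 0.181; 95% interval -0.06 to 0.96) and 0.50 ± 0.24 in reporter-dim cells (adjusted p = 0.239), and although the groups did not overlap neither difference passed.

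Serping1 signals were 42209, 39776, 39057 and 40710 in reporter-high cells. They were 38160, 37986, 32201 and 31939 in reporter-dim cells. Sca1+ negative cells had 31558, 26385, 26609 and 26732, and Sca1- cells 30968, 14976, 16109 and 21671. The means ran in the order reporter-high (40440 ± 1360), reporter-dim (35070 ± 3470), Sca1+ negative (27820 ± 2500) and Sca1- (20930 ± 7300). Neighbours in this order did not overlap except the third and the last, and no neighbouring pair passed the test. Serping1 was higher than in Sca1- cells by 1.01 ± 0.17 in reporter-high (adjusted p = 0.000319; 2.02-fold) and by 0.80 ± 0.17 in reporter-dim cells (adjusted p = 0.0059). The second call was lost without mouse 2 or without mouse 4, with an adjusted p of up to 0.109. The excess of reporter-high over Sca1+ negative cells was 0.54 ± 0.17 (adjusted p = 0.0234) and was lost in 7 of 12 fits, among them those without mouse 2, 3 or 4, with an adjusted p of up to 0.132. Sca1+ negative and Sca1- cells differed by 0.47 ± 0.17 (adjusted p = 0.222; 0.00249 without the Sca1- array of mouse 1).

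Fibroblast genes moved in the same sense. Of 12 listed ones, 11 were higher in reporter-high and 9 in reporter-dim than in Sca1- cells (8 and 4 without mouse 2), against 19.2% and 7.96% of all genes. In reporter-high against Sca1+ negative cells 5 of the 12 were higher (3 without mouse 2), against 17% of all genes. In Sca1+ negative against Sca1- cells 2 of the 12 were higher (0 without mouse 2), against 1.22%. None of the 12 passed as lower in these comparisons. Their mean log2 signal was 13.97 ± 0.07, 13.84 ± 0.14, 13.38 ± 0.17 and 12.89 ± 0.40 in reporter-high, reporter-dim, Sca1+ negative and Sca1- cells. The Sca1- array of mouse 1 was highest of its group in that list too, at 13.49 against 12.65 to 12.76. The part of the share of fibroblasts in the C4b and Serping1 differences was not tested.

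C1qa, C1qb and C3ar1, genes typical of macrophages, had their highest means in Sca1- cells, but their populations overlapped in every comparison. C1qa signals were 1672, 1290, 1608 and 2338 in reporter-high, 1214, 827, 2947 and 2075 in reporter-dim, 1595, 1764, 1164 and 2116 in Sca1+ negative and 3577, 2155, 2030 and 1955 in Sca1- cells. One Sca1- array, of mouse 1, stood far above the others. C1qb signals were 1101, 980, 739 and 1695, then 1021, 797, 1609 and 1178, then 933, 1038, 643 and 1160, and in Sca1- cells 2254, 1477, 1389 and 1094. The Sca1- array of mouse 1 was again the highest. In Sca1+ negative against Sca1- cells C1qa was at -0.54 ± 0.33 (adjusted p = 0.632; 95% interval -1.24 to 0.17) and C1qb at -0.70 ± 0.28 (adjusted p = 0.295; 95% interval -1.29 to -0.11). C1qc, the third chain, had means between 636.2 and 735 and differences of at most 0.20 in size, none past the threshold with limma.

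C3ar1 has 3 probe sets. The brightest gave 449, 570, 534 and 960 in reporter-high and 633, 514, 861 and 708 in reporter-dim cells. Sca1+ negative cells gave 555, 716, 431 and 542, and Sca1- cells 1610, 1147, 1208 and 599. All Sca1- arrays but that of mouse 4 lay above every other array. C3ar1 was lower in reporter-high than in Sca1- cells by -0.84 ± 0.28 (adjusted p = 0.0301; 1.79-fold; 3 of 4 mice). The call was lost in 9 of 12 fits with an array or mouse left out (adjusted p of up to 0.247) and when arrays were scaled to the hybridization controls (adjusted p = 0.231). The other 2 probe sets, tested among 28898, did not pass in that comparison (-0.37 ± 0.19, adjusted p = 0.14, and -0.15 ± 0.07, adjusted p = 0.118), and the dimmest was at or below background on all arrays. Sca1+ negative cells were at -0.96 ± 0.28 against Sca1- cells (adjusted p = 0.102; 0.0172 without the Sca1- array of mouse 4).

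Macrophage transcripts were measured beside these genes. Of 13 measured macrophage genes, 5 (Adgre1, Cd14, Lyz2, Ctss and Tyrobp) were lower and 0 higher in reporter-high than in Sca1- cells (4 and 0 without mouse 2; 3 and 3 when scaled to the hybridization controls). Over all genes 35.9% passed in that comparison, 19.2% higher and 16.7% lower. Between Sca1+ negative and Sca1- cells 0 of the 13 macrophage genes passed with limma (2 at an unadjusted p under 0.05), against 2.45% of all genes. The mean log2 signal of the 13 macrophage genes was 9.51 to 9.88 in reporter-high, 9.60 to 10.28 in reporter-dim, 9.85 to 10.13 in Sca1+ negative and 9.90 to 10.52 in Sca1- cells. The highest value was that of the Sca1- array of mouse 1, and the Sca1- array of mouse 4, low in C3ar1 and C1qb, had the lowest of its group. Between 9 and 12 of the 13 genes were above background in all 4 arrays of a population. Adgre1, which encodes the F4/80 antigen, had 784, 587, 572 and 507 in Sca1- cells and 343 to 562 on the other arrays. Ptprc, the gene of CD45, against which the cells were sorted, was at 467.5 ± 150, 487 ± 172, 634.8 ± 234 and 899.8 ± 212 in the 4 populations. The part of macrophages in the C1q and C3ar1 values was not tested.

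**Figure D3:**
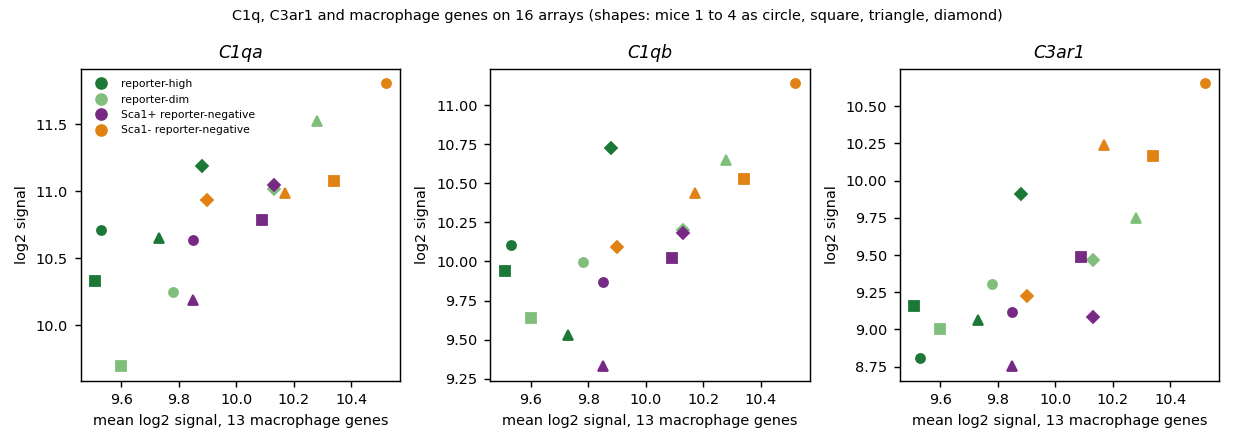
Log2 signal of C1qa, C1qb and C3ar1 (vertical axes) against the mean log2 signal of 13 macrophage genes (horizontal axis) on 16 arrays, coloured by population and shaped by mouse. The Sca1- array of mouse 1, at 10.52, is at the upper right of each panel.

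RefSeq (GRCm38.p6) promoter windows, 250 bases before to 50 after the start site, were given for C1qb and C3ar1 among the measured genes of the set. Both are shown because no other measured gene of the set had a window. C1ra and C1rb are added as the pair of protease genes described next. The windows lie at chr4:136886151-136886450 (C1qb, minus strand), chr6:122856108-122856407 (C3ar1, minus), chr6:124512371-124512670 (C1ra, plus) and chr6:124570180-124570479 (C1rb, plus). Capitals mark matches to the motifs searched on both strands.
C1qb: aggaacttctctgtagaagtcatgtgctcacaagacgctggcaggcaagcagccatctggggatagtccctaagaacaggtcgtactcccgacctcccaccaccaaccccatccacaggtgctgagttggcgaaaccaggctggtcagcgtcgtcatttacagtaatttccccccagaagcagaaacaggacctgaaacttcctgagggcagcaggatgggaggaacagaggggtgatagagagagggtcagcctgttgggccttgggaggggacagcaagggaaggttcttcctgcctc
C3ar1: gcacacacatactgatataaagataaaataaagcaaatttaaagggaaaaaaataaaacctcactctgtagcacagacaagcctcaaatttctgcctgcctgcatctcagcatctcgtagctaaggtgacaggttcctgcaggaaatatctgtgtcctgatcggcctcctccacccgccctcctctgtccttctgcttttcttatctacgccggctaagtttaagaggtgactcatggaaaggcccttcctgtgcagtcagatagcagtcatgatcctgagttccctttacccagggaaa
C1ra: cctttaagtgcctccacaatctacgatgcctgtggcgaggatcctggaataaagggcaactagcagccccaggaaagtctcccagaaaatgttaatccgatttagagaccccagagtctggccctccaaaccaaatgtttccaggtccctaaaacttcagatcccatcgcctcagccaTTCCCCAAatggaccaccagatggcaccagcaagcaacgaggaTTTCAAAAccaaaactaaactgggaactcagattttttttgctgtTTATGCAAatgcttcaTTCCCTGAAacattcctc
C1rb: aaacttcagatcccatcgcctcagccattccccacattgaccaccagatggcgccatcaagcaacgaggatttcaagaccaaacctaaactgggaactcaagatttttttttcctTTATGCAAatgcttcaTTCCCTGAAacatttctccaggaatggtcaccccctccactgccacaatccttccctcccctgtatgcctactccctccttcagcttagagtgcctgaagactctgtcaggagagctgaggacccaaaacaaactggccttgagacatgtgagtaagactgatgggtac
The motifs were TTCNNNGAA (bound by STAT factors, in 8.3% of 32851 promoters), TTNNGNAA (C/EBP, 40.7%), GACCACCCA (Gli, 0.253%), the interferon response element ISRE (3.44%) and the kB motif (4.51%). C1qb and C3ar1 held a match to none of them. C1ra and C1rb both held TTATGCAA followed by TTCCCTGAA, which began 32 bases after the start site in C1ra and 119 bases before it in C1rb (position -119). These genes are near-identical, so the run they share is not an independent finding in each. The windows of C1qc and C1s1 are not printed. C1qc held a C/EBP match (position -81) and a kB match (position -41), and C1s1 held C/EBP matches but none to TTCNNNGAA. A match is a run of letters and not a shown binding site.

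The proteases that C1q activates were measured with other complement genes, 42 of 51 listed. C1ra and C1rb, and C1s1 and its copy C1s2, are near-identical, so signals may be shared within each pair. C1ra, a C1r protease gene, was at 16133, 15214, 13192 and 16000 in reporter-high, 11514, 11649, 10411 and 11064 in reporter-dim, 9478, 8309, 8986 and 9274 in Sca1+ negative and 6475, 3207, 3449 and 3241 in Sca1- cells. The 4 populations did not overlap at all. C1ra exceeded Sca1- cells by 1.95 ± 0.17 in reporter-high (adjusted p = 4.32e-06; 3.87-fold), 1.51 ± 0.17 in reporter-dim and 1.21 ± 0.17 in Sca1+ negative cells (adjusted p = 0.000863), and reporter-high exceeded Sca1+ negative cells by 0.75 ± 0.17 (adjusted p = 0.00403). C1s1, the protease that cuts C4 and C2, had the same order of means, 24190 ± 2040, 20570 ± 2350, 15840 ± 3510 and 8624 ± 4000. It was higher by 1.58 ± 0.22 in reporter-high than in Sca1- cells (adjusted p = 9.52e-05). C1rb, named here for its likeness to C1ra although outside the rule for named genes, was at 20030, 20860 and 19700 in the Sca1+ populations and at 12990 in Sca1- cells (0.63 ± 0.10 for reporter-high, adjusted p = 0.000187).

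Masp1, a protease of the lectin pathway, was higher in reporter-high than in Sca1- cells by 0.86 ± 0.15 (adjusted p = 0.000417), and Colec12, a scavenger receptor with a lectin domain, by 0.89 ± 0.28 (adjusted p = 0.0221; 0.202 without mouse 2). Of 13 recognition and protease genes, 5 were higher and 1 lower in reporter-high than in Sca1- cells, and 3 higher and 0 lower in Sca1+ negative than in Sca1- cells. Without mouse 2 these counts were 4 and 1, then 1 and 0, and with scaling to the hybridization controls 8 and 0, then 3 and 0. Their median log2 differences were 0.04 and 0.11, against -0.01 and 0 over all genes. Of all genes, 19.2% were higher and 16.7% lower in reporter-high than in Sca1- cells. Between Sca1+ negative and Sca1- cells these shares were 1.22% and 1.23%. Of 7 genes of the remaining convertase parts and the terminal pathway, which builds the membrane pore, 0 passed in any of the 6 comparisons with limma (at most 1 at an unadjusted p under 0.05). Of all genes, 1.42% to 35.9% passed, depending on the comparison. When arrays were scaled to the hybridization controls, which raises all genes of reporter-high cells, 5 of the 7 passed as higher there than in either negative population.

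Among 14 regulators, 0 were higher and 3 lower in reporter-high than in Sca1+ negative cells (0 and 2 without mouse 2; 6 and 2 when scaled to the hybridization controls), and 1 was higher and 1 lower in Sca1+ negative than in Sca1- cells. Over all genes 17% were higher and 13.9% lower in the first comparison, and 1.22% and 1.23% in the second. Vtn, like C2, was highest in Sca1+ negative cells. Vitronectin, its product, blocks insertion of the terminal complex into membranes. Vtn signals were 736, 691, 1146 and 1095 in Sca1+ negative cells and between 447 and 592 on the other 12 arrays. It was lower by -0.80 ± 0.15 in reporter-high (adjusted p = 0.00108) and -0.79 ± 0.15 in reporter-dim cells (adjusted p = 0.0256; 0.129 without mouse 2), and higher than in Sca1- cells by 0.85 ± 0.15 (adjusted p = 0.00418). Cd59a, an inhibitor of the membrane pore on the cell surface, was highest in Sca1- cells, with 5442, 2597, 2371 and 3105 there and 1010 to 1767 on the other arrays. It was at -1.41 ± 0.19 in Sca1+ negative (adjusted p = 0.000747), -1.0 ± 0.19 in reporter-high (adjusted p = 0.000983) and -1.30 ± 0.19 in reporter-dim cells (adjusted p = 0.000592). Cd55, which speeds the decay of the C3-cleaving enzymes, was higher than in Sca1- cells by 0.65 ± 0.12 in reporter-high and 0.70 ± 0.12 in reporter-dim cells (adjusted p = 0.000783 and 0.00178). Clu, a secreted chaperone that also binds the terminal complex, was lower in reporter-high cells than in Sca1+ negative cells by -1.07 ± 0.19 (adjusted p = 0.000744). Among 8 receptors, Cd93, a lectin-like receptor of endothelial and myeloid cells, was lower in reporter-high than in Sca1+ negative cells by -1.19 ± 0.30 (adjusted p = 0.00674).

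**Figure D4:**
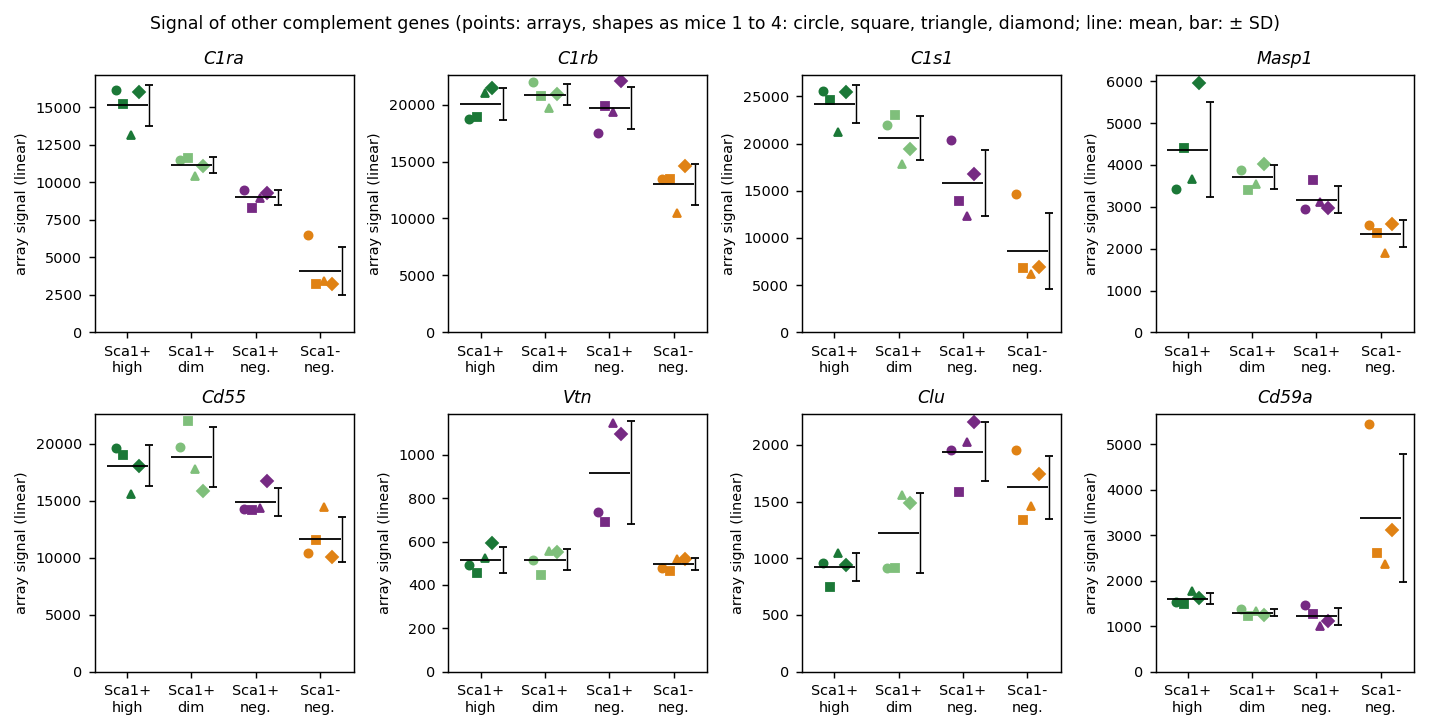
Array signal (linear axis from 0) of 8 other complement genes in the 4 populations, 1 point per array with the shape giving the mouse, the line the mean and the bar ± SD of 4 arrays. C1ra has its highest signals in reporter-high and its lowest in Sca1- cells, Vtn is highest in Sca1+ negative cells and Cd59a in Sca1- cells.

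Counted over the set of 7, 3 genes passed between reporter-high and Sca1+ negative cells, where 30.9% of all genes did (1 higher against 17%, 2 lower against 13.9%; 2 without mouse 2), and 4 did not overlap, where 30.2% of all genes did not. For reporter-dim against Sca1+ negative cells 2 of 7 passed (C2 and Cfb; 1 without mouse 2), against 1.51% of all genes. Both were lower, as were 0.608% of all genes, with 0.901% higher, and 4 did not overlap, against 10.6%. For Sca1+ negative against Sca1- cells 2 of 7 passed (C2 and C4b; 1 without mouse 2), against 2.45%. Both were higher, as were 1.22% of all genes, with 1.23% lower, and 3 did not overlap, against 5.46%. For reporter-high against Sca1- cells 3 passed (2 higher against 19.2%, 1 lower against 16.7%; 2 without mouse 2; 5 with mouse as a block, C2 at an adjusted p of 0.0493 and Cfb added), against 35.9%, and 3 did not overlap, against 31.4%. For reporter-dim against Sca1- cells 2 passed (1 without mouse 2), against 13.9%. Both were higher, as were 7.96% of all genes, with 5.89% lower, and 2 did not overlap, against 13.4%. In so small a set, the counts for reporter-high cells lie near the share of all genes. The median log2 difference of the 7 genes was 0.12, 0.27, 0.47, -0.42 and -0.07 in these 5 comparisons, and that of all genes between -0.02 and 0. The comparisons share populations and are not independent of one another.

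Reporter-high and reporter-dim cells, which differ in ZsGreen brightness, did not differ by test in any of the 7 genes. With limma 0 of 7 passed (0 at an unadjusted p under 0.05), where 1.42% of all genes passed (0.485% higher, 0.93% lower). Cfb was at -0.35 ± 0.18 (adjusted p = 0.345; 95% interval -0.73 to 0.03), lower in reporter-high cells in 4 of 4 mice. Serping1 was at 0.21 ± 0.17 (adjusted p = 0.578; 95% interval -0.15 to 0.57) and alone did not overlap, against 11.8% of all genes. C2 was at 0.03 ± 0.12 with an interval from -0.22 to 0.29, and C4b at -0.05 ± 0.24 with one from -0.56 to 0.46, so that larger changes of C4b than of C2 would have gone undetected. C1qa, C1qb and C3ar1 were at 0.10 ± 0.33, -0.05 ± 0.28 and -0.15 ± 0.28. Scaling to the hybridization controls took the median of all genes from 0.01 to 0.33 in this comparison and Serping1 to 0.53 (adjusted p = 0.0135).

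**Figure D5:**
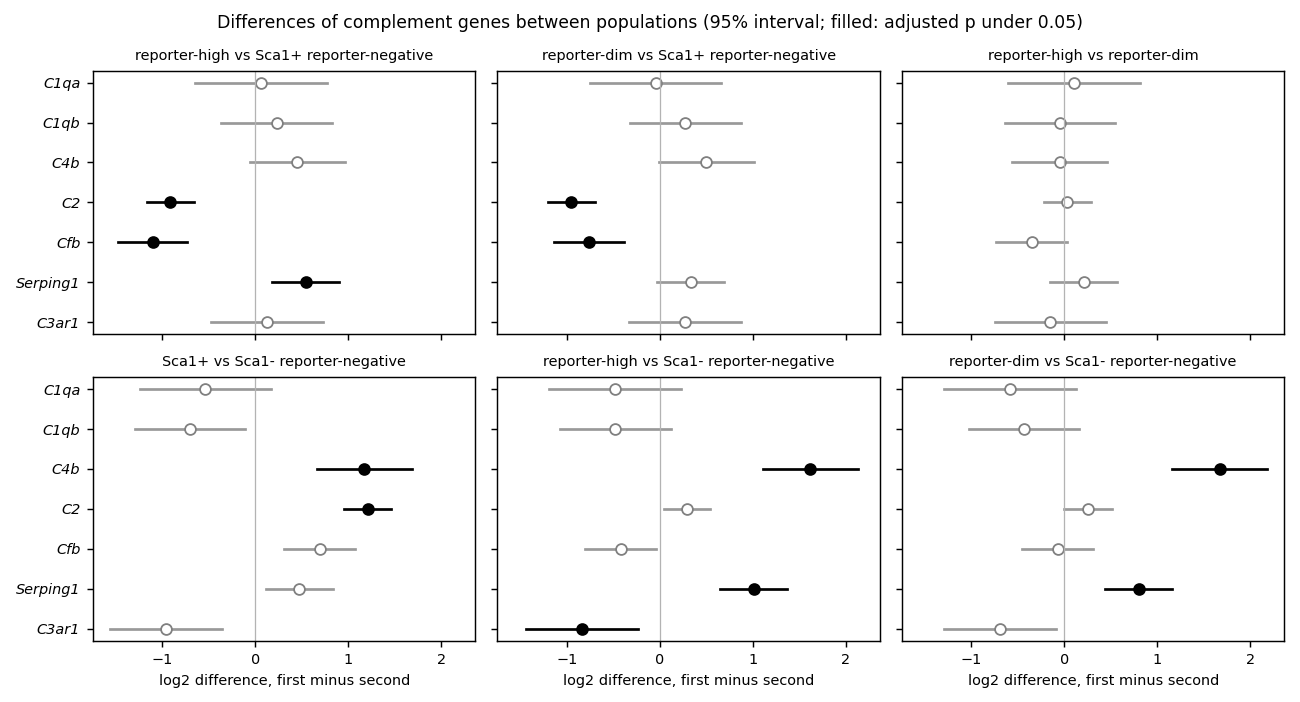
Log2 differences (horizontal axis, first minus second population) with 95% intervals of the 7 genes in 6 comparisons. Filled points passed an adjusted p of 0.05. C2 is filled in 3 panels and C4b in 3, and no point is filled for reporter-high against reporter-dim cells.

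Over the 16 arrays the 7 genes fell into pairs and a trio. Pearson's r of log2 signals was 0.718 for C2 with Cfb, 0.882 for C4b with Serping1, 0.858 for C1qa with C1qb, 0.869 for C1qb with C3ar1 and 0.728 for C1qa with C3ar1. C2 and Serping1 were at 0.097. These values are descriptions, since arrays share mice and populations. Among 8336 genes of above-median level, those closest to C2 were Sned1 and Ptx3 (both 0.961) and Adam12 (0.946). Ptx3 encodes a pentraxin, a soluble pattern recognition protein that binds C1q. Cfb was closest to Ntrk2 (0.919), Saa3 (0.883), an acute-phase gene, and Nrip1 (0.88). C4b was closest to Gsn and Igfbp4 (both 0.967) and Serpina3n (0.965), a secreted protease inhibitor, and Serping1 to Meg3 (0.981), Gprc5b and Tpst1 (both 0.978). C1qa was closest to Cd74 (0.913), Lilrb4a (0.87) and H2-Ab1 (0.868), of which Cd74 and H2-Ab1 serve antigen presentation on class II molecules. C1qb was closest to C1qa, Cd74 (0.811) and Lilrb4a (0.796), and C3ar1 to C1qb, Fcer1g (0.837) and Fcgr2b (0.816), which encode parts of Fc receptors.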

How the data were processed

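RNA of 16 sorted samples was read on Affymetrix arrays. Affymetrix Expression Console 1.1 was used, per the submitters' processing notes, and its summary, background and normalization steps are unstated: not given in the sources used here. What was deposited is a score per probe set, with mean 0 and SD 1 across 16 arrays. Whole-number signals that give these scores on a log scale were recovered for all 45141 probe sets (a value counted as whole within 0.0001; largest error 1.39e-13; 1000 of 1000 simulated probe sets recovered exactly; Python 3.11.15 with numba 0.67.0, numpy 2.4.6 and pandas 2.3.3; figures with matplotlib 3.10.9). The design had assumed deposited log2 values; the recovered signals took their place.

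Of these probe sets 28898 carried 1 gene, and the brightest probe set on average stood for each of 17097 genes. Log2 signals of all 16 arrays were fitted by lmFit and eBayes of limma 3.58.1 under R 4.3.3, with 1 mean per population and no block. P-values are two-sided and adjusted by Benjamini-Hochberg over all genes, with a threshold of 0.05. On simulated data of reporter-high against Sca1+ negative cells (17097 genes), 180 of 200 changes of 1 log2 unit were recovered, with 7 false calls. The simulated noise was independent between arrays and only these 200 genes differed. The figures therefore do not give the error rate on the real arrays. The number of arrays limits the precision.

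Per the labels each animal gave all 4 populations; deviations from population means correlated at 0.265 on average within a mouse (0.519, -0.0795, 0.507 and 0.112 for mice 1 to 4) and -0.0893 between mice. The ratio of 3' to 5' Actb control signals was 1.24 ± 0.032, 1.15 ± 0.072, 1.11 ± 0.013 and 1.10 ± 0.052 (SD, n = 4) from reporter-high to Sca1- cells; its effect was not tested.

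The genes and lists were chosen with earlier results of these data known. Named genes are all members, up to 4 genes per list of other complement genes with the largest differences past the threshold, the 3 most correlated genes per member, sort genes, and marker genes beside a member. Alternatives were mouse as a block, quantile normalization, scaling to hybridization controls, the deposited scores, every probe set, a filter on dim genes, 2 populations only, left-out arrays and mice, and, added after the data were seen, sex as a covariate.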

Additional observations from a re-analysis of the deposited data

Results flagged for a closer look

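Of 28 groups of 4 arrays, 7 genes in 4 populations, 3 held an array whose gap to the nearest other was a larger part of the group's range than Dixon's criterion allows, which chance alone does in about 1 group of 20. All 3 were arrays of mouse 1. C4b in reporter-dim cells was 24518 in mouse 1 against 19699 to 20076 in the others. Serping1 in Sca1+ negative cells was 31558 in mouse 1 against 26385 to 26732. C1qa in Sca1- cells was 3577 in mouse 1 against 1955 to 2155. That last array was also the highest of its group for C1qb, C3ar1, C4b and Serping1 and for Lyve1, a gene of lymphatic endothelium and some macrophages (13771, against a group median of 3861), and was the only Sca1- array with Y-linked transcripts.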

How the results depend on the processing

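No member's difference that passed the test changed direction under any alternative run. Over the settings other than left-out arrays, 314 of 336 values stayed on their side of the threshold, 11 lost it and 11 gained it; over left-out arrays or mice, 462 of 504 stayed, 33 lost it and 9 gained it. The cause of changes in calls was not tested. For reporter-high against Sca1+ negative cells the count of 3 became 4 with scaling to hybridization controls (2 higher, 2 lower). It became 2 with the deposited scores. For reporter-dim against Sca1+ negative cells the count of 2 became 1 with quantile normalization, with scaling to hybridization controls and with 2 populations only, and 0 with the deposited scores, which call 0 genes in all there. For reporter-high against reporter-dim cells the count of 0 became 1 with scaling to hybridization controls. For Sca1+ negative against Sca1- cells the count of 2 became 1 with the deposited scores and with 2 populations only. For reporter-high against Sca1- cells the count of 3 became 5 with mouse as a replicate block, and for reporter-dim against Sca1- cells the count of 2 became 1 with 2 populations only. With scaling to hybridization controls the count for reporter-high against Sca1- cells stayed at 3, with 3 higher and 0 lower instead of 2 and 1. With mouse as a block 1 more call was gained, Cfb between Sca1+ negative and Sca1- cells, and none was lost; over all genes its calls rose from 258 to 2386 for reporter-dim against Sca1+ negative cells. With an array or mouse left out, counts ran from 2 to 3 for reporter-high and 0 to 2 for reporter-dim against Sca1+ negative cells, 0 to 0 for reporter-high against reporter-dim, 1 to 3 for Sca1+ negative, 2 to 4 for reporter-high and 1 to 3 for reporter-dim against Sca1- cells. Scaling to hybridization controls took the median of all genes to 0.38 in reporter-high against Sca1+ negative, from -0.01 to 0.42 in reporter-high against Sca1- and from -0.02 to 0.10 in reporter-dim against Sca1- cells, and the share of calls that were higher from 55% to 92.1%, 53.4% to 92.2% and 57.5% to 84.4%. In reporter-dim against Sca1+ negative, reporter-high against reporter-dim and Sca1+ against Sca1- reporter-negative cells that share went from 59.7% to 91.3%, 34.3% to 96.5% and 49.9% to 59.9%. With this scaling Masp2, C4bp, Clu, Itgax, Itgb2 and C1qbp no longer passed in reporter-high against Sca1- cells, nor did C4bp and C1qbp against Sca1+ negative cells. C2 in Sca1- cells and the dimmest C3ar1 probe set lie near background, which limits their differences.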

Other observations

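Other complement genes that passed the test were outside the rule for named genes or have not been described. Masp2, a protease of the lectin pathway, had means of 1150, 1178 and 1210 in the Sca1+ populations and 1636 in Sca1- cells, and was at -0.50 ± 0.11 in reporter-high against Sca1- cells (limma adjusted p = 0.00209; 0.696 when arrays were scaled to the hybridization controls). C4bp, an inhibitor of the classical enzyme, was at -0.63 ± 0.15 in reporter-high against Sca1+ negative cells (adjusted p = 0.00485; 0.0648 without mouse 2; 0.248 when scaled to the hybridization controls), near background in all populations. C1qbp, a mostly mitochondrial protein named for binding C1q, was at -0.59 ± 0.13 in the same comparison (adjusted p = 0.00411; 0.0608 without mouse 2; 0.339 when scaled). Itgb2 and Itgax, integrin chains that form complement receptors of leukocytes, were at -1.08 ± 0.27 and -0.34 ± 0.10 in reporter-high against Sca1- cells (adjusted p = 0.00602 and 0.0135; 0.0602 and 0.169 without mouse 2; 0.0526 and 0.61 when scaled). Of 8 receptors 4 were lower in that comparison and 0 higher, while 1 was lower and 0 higher without mouse 2, and 1 was lower and 2 higher when scaled. With all arrays and no scaling, 16.7% of all genes were lower and 19.2% higher in reporter-high than in Sca1- cells.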
